A study of Caenorhabditis elegans with 22 samples.

Results

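The 7 fatty acid desaturase genes of Caenorhabditis elegans, fat-1 to fat-7, were taken by gene symbol from a table of 42048 genes, and all 7 were among the 15310 genes with enough counts to be tested. Desaturases of the endoplasmic reticulum put double bonds into fatty acid chains, drawing electrons through cytochrome b5. In the worm, FAT-5, FAT-6 and FAT-7 make the first double bond, FAT-5 acting mainly on palmitate and the closely similar FAT-6 and FAT-7 mainly on stearate. FAT-2 then turns the product of FAT-6 and FAT-7, oleate, into linoleate, FAT-1 adds the omega-3 bond, and FAT-3 and FAT-4 add the further bonds that lead to arachidonic and eicosapentaenoic acid. The worm thus builds polyunsaturated fatty acids without a dietary source, and the intestine is a main site of fat synthesis.

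PolyA RNA of whole worms of the wild-type N2 strain was sequenced to follow the response to ethanol over time. Worms grown at 20 °C on E. coli OP50 were washed off the bacteria and kept in S-basal, a salt buffer with no food added, with 0% (control) or 5% (v/v) ethanol for 1, 4 or 20 h. The 22 libraries formed 7 groups, with 4 libraries at time zero, taken without ethanol, and 3 in each control and ethanol group. The protocols give the worms as L3 larvae and the series title as L4. Yolk protein, oocyte and sperm transcripts were detected in every group. At time zero the 6 yolk protein genes already summed to 47060 to 72250 scaled reads per megaread. The 13 oocyte and eggshell genes summed to 4226 to 11580. The stage is therefore not settled here. All buffer groups, controls included, had also been taken off food, and a control differs from time zero by food, buffer and age together.

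Library totals ran from 10908205 to 15302047 counts. Levels are given as CPM, reads of a gene per megaread of the library after scaling by the trimmed mean of M-values (TMM), and a gene was called changed at an adjusted p under 0.05 in edgeR's quasi-likelihood test over all 15310 genes. In whole animals, fewer cells of a type and less RNA per cell cannot be told apart. The first principal component of deviations from the group means, taken over all tested genes, carried 41.4% of the variance inside groups, and 6 libraries scored above 10 on it. These were replicate 1 at time zero, control replicate 2 at 1 h, control replicate 1 at 20 h, and ethanol replicates 2, 2 and 3 at 1, 4 and 20 h. In all 6, fat-1, fat-2, fat-4 and fat-6 were at their lowest of the group, and fat-3 and fat-7 were in 5 of 6. The gene fat-5 was at its lowest in 1 of the 6 and at its highest in 4. The summed oocyte and eggshell, sperm and neuron markers were at their highest of the group in all 6. The deviations of each library were also fitted on log2 exon length over the genes with a known length. The slope was 0.079 to 0.207 in the 6 and -0.163 to 0.0162 in the other libraries, so the component went together with exon length. The part of this component in the results was not tested, and the calls that change without the 6 libraries are given beside the values. The 6 were picked by these same deviations, so leaving them out narrows the spread inside groups. More of all genes were then called too, such as 5868 in place of 4664 for ethanol against control at 4 h.

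In the WBcel235 annotation, fat-1 to fat-4 and fat-6 lie on chromosome IV and fat-5 and fat-7 on chromosome V. The genes fat-1 and fat-2 are neighbours, as are fat-3 and fat-4. An exon of fat-5 overlaps twk-42, a potassium channel gene on the opposite strand, and the strand setting of the counting is not given in the sources used here. Over the 22 libraries twk-42 ran from 1.92 to 10.6 CPM and fat-5 from 0.162 to 153 CPM. At 20 h the mean of twk-42 was 5.17 CPM in the controls and 3.01 CPM in ethanol, opposite in direction to fat-5. The handling of reads that match both fat-6 and fat-7 is likewise not given, so part of the signal of one could have been counted for the other or dropped.

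The first comparison was of each ethanol group with the control kept for as long. At 1 h only fat-6 passed the test, higher in ethanol. At 4 h fat-5 was higher and fat-3 lower, and at 20 h fat-5 and fat-2 were higher while fat-3 and fat-4 were lower. The change of fat-5 was the largest of the family at 4 h and at 20 h. The count of members called was 1 of 7 at 1 h against 6.67% of all genes tested, 2 of 7 at 4 h against 30.5%, and 4 of 7 at 20 h against 53.2%. Higher and lower calls made up 4.94% and 1.72% of all genes at 1 h, 17.1% and 13.4% at 4 h, and 25% and 28.1% at 20 h. These counts over all genes are of the same order as those of the family. Groups that did not overlap were found for 1, 5 and 3 of the 7 genes at 1, 4 and 20 h, against 18.9%, 54.3% and 55.4% of all genes.

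**Figure D1:**
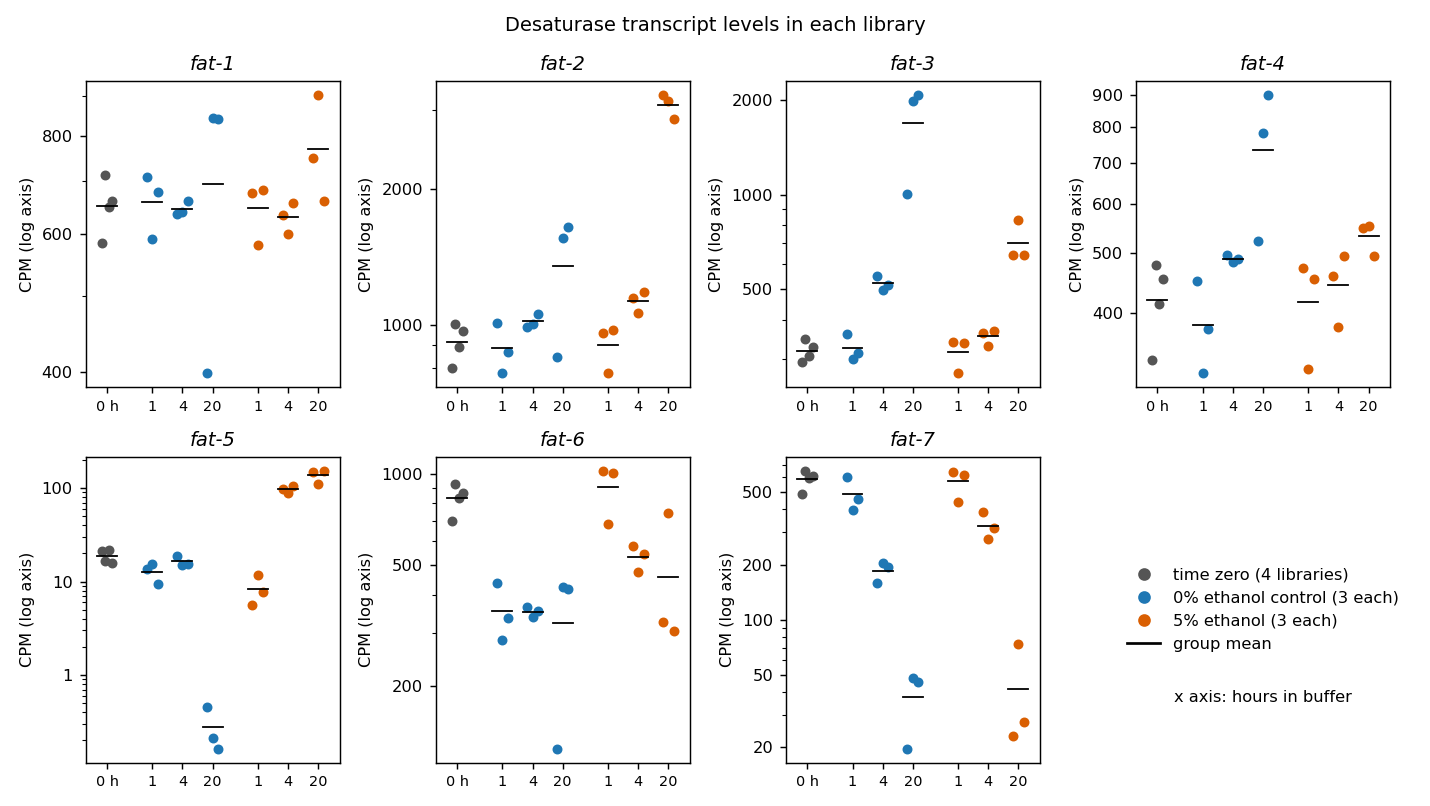
CPM of each desaturase gene (log axis) in each of the 22 libraries, by hours in buffer, with time zero in grey, controls in blue, ethanol in orange and the group mean as a bar. The 3 ethanol libraries of fat-5 at 20 h sit between 109.5 and 153.4 CPM, while the 3 controls lie below 0.5 CPM.

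Among the enzymes of the first double bond, fat-5 stood at 21.2, 16.4, 21.9 and 15.9 CPM in time zero replicates 1 to 4. In the controls it was at 13.5, 15.4 and 9.49 CPM at 1 h, 18.9, 15.2 and 15.4 CPM at 4 h, and 0.458, 0.212 and 0.162 CPM at 20 h. In ethanol it was at 5.68, 11.7 and 7.77 CPM at 1 h, 97.5, 89.5 and 105.3 CPM at 4 h, and 148.2, 109.5 and 153.4 CPM at 20 h. The ethanol and control libraries overlapped at 1 h and were far apart at 4 h and at 20 h, and the last control group was nearly without reads.

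At 1 h the log2 fold change of fat-5 in ethanol was -0.61 ± 0.25 (SE), which did not pass (adjusted p = 0.188). Without the 6 libraries it was -0.75 and passed (adjusted p = 0.0434), and without ethanol replicate 2 it was -0.88 (adjusted p = 0.0318). At 4 h fat-5 was 5.91-fold higher in ethanol (log2 2.56 ± 0.24, adjusted p = 7.07e-08). At 20 h its log2 fold change was 8.90 ± 0.37 (adjusted p = 1.95e-13). That fold rests on 6, 3 and 2 reads in the controls against 2269, 1427 and 2666 reads in ethanol. Taken from the summed counts the ratio was 500.5, with an exact 95% interval of 279.5 to 1003 that covers counting error only. Both calls held in every alternative that was run.

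The 20 h difference had a rise in ethanol and a loss in the control. Against time zero, fat-5 in ethanol fell at 1 h (log2 -1.18 ± 0.23, adjusted p = 0.00125) and rose at 4 h (2.37 ± 0.22, adjusted p = 2.46e-08) and at 20 h, when it was 7.27-fold higher (2.86 ± 0.22, adjusted p = 1.03e-09). In the control the 3 libraries at 1 h lay below all of time zero, with a change that did not pass (-0.56 ± 0.23, adjusted p = 0.137) but did without the 6 libraries (-0.66, adjusted p = 0.0323) and with the slope on exon length as a covariate (0.0186). At 4 h it did not pass (-0.19 ± 0.22, adjusted p = 0.489), and it fell at 20 h (-6.04 ± 0.35, adjusted p = 8.11e-12). Summed counts gave a time zero level 66.8 times that of the 20 h control, with a counting interval of 37.1 to 134.2.

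The level of fat-6 was 702, 926.2, 836.2 and 864.4 CPM at time zero. In the controls it was at 438.1, 284.2 and 336.2 CPM at 1 h, 365.7, 337.1 and 354.2 CPM at 4 h, and 124.3, 424.1 and 419.4 CPM at 20 h. In ethanol it was at 1026, 683.7 and 1008 CPM at 1 h, 581.3, 474.6 and 545.2 CPM at 4 h, and 324.8, 745.9 and 304.6 CPM at 20 h. The controls at 1 h and 4 h all lay below every time zero library, while the ethanol libraries at 1 h spanned the time zero range. At 20 h control replicate 1 was low and ethanol replicate 2 high, and the groups overlapped.

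With 5% ethanol fat-6 was 2.57-fold above the control at 1 h (log2 1.36 ± 0.36, adjusted p = 0.0239). This call was lost without control replicate 2 (adjusted p = 0.133) or 3 (0.0994), without ethanol replicate 1 (0.0875) or 3 (0.0927), and with no filter on low counts (0.0531). Against time zero the 1 h control was lower (-1.24 ± 0.34, adjusted p = 0.0211) and the 1 h ethanol group did not pass (0.12 ± 0.33, adjusted p = 0.935). The control call ended without control replicate 2 (adjusted p = 0.123) or 3 (0.0873).

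At 4 h the 3 ethanol libraries of fat-6 lay above the 3 controls, with a log2 fold change of 0.60 ± 0.36 that did not pass (adjusted p = 0.235). It passed with only the 4 h groups in the fit (adjusted p = 3.07e-05) and without the 6 libraries (0.0388). At 20 h the change was 0.51 ± 0.35 (adjusted p = 0.244), which passed with the length slope (0.60, adjusted p = 0.0228). Leaving out 1 library moved it from -0.03 (without ethanol replicate 2) to 0.79, so its direction rests on single libraries. The controls stayed below time zero at 4 h (-1.24 ± 0.34, adjusted p = 0.00588) and at 20 h (-1.37 ± 0.34, adjusted p = 0.00196).

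The level of fat-7 was 488.4, 652.2, 590.9 and 607.1 CPM at time zero. In the controls it was at 600.8, 399 and 457.4 CPM at 1 h, 158.5, 202.9 and 194.2 CPM at 4 h, and 19.6, 48.0 and 45.8 CPM at 20 h. In ethanol it was at 645.1, 441.8 and 620.6 CPM at 1 h, 387.7, 274.6 and 314.9 CPM at 4 h, and 23.1, 73.9 and 27.5 CPM at 20 h. Both arms ended far below time zero, the groups overlapped at 1 h and 20 h, and the ethanol libraries lay above the controls at 4 h.

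The ethanol effect on fat-7 did not pass at 1 h (0.23 ± 0.35, adjusted p = 0.813), at 4 h (0.81 ± 0.35, adjusted p = 0.0870) or at 20 h (0.13 ± 0.35, adjusted p = 0.779). The 4 h effect passed with only the 4 h groups in the fit (adjusted p = 5.93e-05) and without the 6 libraries (0.0466). The 20 h effect ran from -0.58 (without ethanol replicate 2) to 0.47 when 1 library was left out, and so had no settled direction. Against time zero fat-7 fell in the control at 4 h (-1.66 ± 0.34, adjusted p = 0.000545) and at 20 h (-3.95 ± 0.38, adjusted p = 2.36e-08). In ethanol it fell at 20 h by a like amount (-3.82 ± 0.38, adjusted p = 5.76e-08). The 3 first-step genes thus ended in 3 different positions at 20 h in ethanol: fat-5 above time zero, fat-6 below it in 2 of 3 libraries, and fat-7 below it in all 3.

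Next along the pathway, fat-2 encodes the enzyme that makes linoleate from oleate. Its level was 800.2, 1005, 891.4 and 969.3 CPM at time zero. In the controls it was at 1010, 779.5 and 871.1 CPM at 1 h, 989.4, 1005 and 1056 CPM at 4 h, and 846.4, 1555 and 1646 CPM at 20 h. In ethanol it was at 957.2, 779.7 and 970.4 CPM at 1 h, 1148, 1062 and 1179 CPM at 4 h, and 3244, 3150 and 2861 CPM at 20 h. The rise in ethanol stood clear of all other groups at 20 h, when fat-2 was 2.29-fold above the control (log2 1.19 ± 0.19, adjusted p = 1.57e-05). The call held in every alternative that was run. At 1 h the effect was 0.02 ± 0.18 (adjusted p = 0.971) and at 4 h 0.15 ± 0.18 (adjusted p = 0.617), which passed with only the 4 h groups in the fit (0.0415). The control itself was higher at 20 h than at time zero (0.56 ± 0.17, adjusted p = 0.00841), though control replicate 1 lay within the time zero range, and that call ended without control replicate 2 (adjusted p = 0.0600) or 3 (0.0856).

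FAT-3 acts on linoleate and on its omega-3 counterpart. The gene stood at 292.7, 346.3, 305.7 and 326 CPM at time zero. In the controls it was at 360.5, 299.9 and 313.9 CPM at 1 h, 549.9, 497.8 and 515.8 CPM at 4 h, and 1003, 1984 and 2081 CPM at 20 h. In ethanol it was at 338.5, 269.7 and 336.7 CPM at 1 h, 363.2, 328.9 and 368.8 CPM at 4 h, and 640.1, 828.4 and 642.6 CPM at 20 h. Both arms were above time zero at 20 h, and the control was already at 4 h. The control exceeded time zero at 4 h (0.71 ± 0.18, adjusted p = 0.00309) and at 20 h, by 5.32-fold (2.41 ± 0.19, adjusted p = 5.52e-10), and ethanol exceeded it at 20 h (1.15 ± 0.18, adjusted p = 2.09e-05). Against the control fat-3 was lower in ethanol at 20 h (-1.26 ± 0.20, adjusted p = 1.68e-05), a call that held in every alternative that was run. It was also lower at 4 h (-0.56 ± 0.20, adjusted p = 0.0345), but that call was lost when any 1 of the 6 libraries compared was left out (adjusted p 0.0603 to 0.112), and with library sizes alone as the scaling (0.0798). At 1 h the effect was -0.04 ± 0.20 (adjusted p = 0.945).

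FAT-4 makes arachidonic and eicosapentaenoic acid. At time zero fat-4 was at 335.5, 478.6, 412.8 and 453.8 CPM. At 20 h it was at 522, 782.7 and 900.9 CPM in the control and at 548.6, 553 and 494.9 CPM in ethanol. The groups overlapped, since control replicate 1 was below 2 of the ethanol libraries. The effect of -0.47 ± 0.19 passed narrowly (adjusted p = 0.0462). It did not with DESeq2 (0.0585), limma-voom (0.0607), library sizes alone (0.327), RLE factors (0.0619) or upper-quartile factors (0.0746). It also did not with no count filter (0.111), the replicate block (0.0729) or only the groups compared (0.104). Leaving out any 1 of 5 of the 6 libraries compared ended the call too (0.0746 to 0.237). It stayed with the length slope, without the 6 libraries scoring above 10, and without control replicate 1 (-0.66, adjusted p = 0.00406). At 1 h and 4 h the effects were 0.12 ± 0.19 and -0.14 ± 0.19 (adjusted p = 0.816 and 0.665). The control exceeded time zero at 20 h (0.81 ± 0.18, adjusted p = 0.000552).

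The gene of the omega-3 desaturase, fat-1, ran from 398.2 to 902.6 CPM over all libraries, and it was not called in any comparison over all 22 libraries. Its group means lay between 630.3 ± 29.3 CPM (SD, n = 3, ethanol 4 h) and 770.8 ± 123 CPM (n = 3, ethanol 20 h), and time zero was at 652 ± 53.2 CPM (n = 4). The ethanol effects were -0.03 ± 0.20, -0.04 ± 0.20 and 0.15 ± 0.20 at 1, 4 and 20 h (adjusted p = 0.971, 0.932 and 0.546). The lowest library, control replicate 1 at 20 h, was among the 6 that stood apart. Without it fat-1 in the 20 h control exceeded time zero (0.37, adjusted p = 0.0188), as it did without all 6 (0.36, adjusted p = 0.00549), against 0.09 ± 0.19 with it (adjusted p = 0.716).

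**Figure D2:**
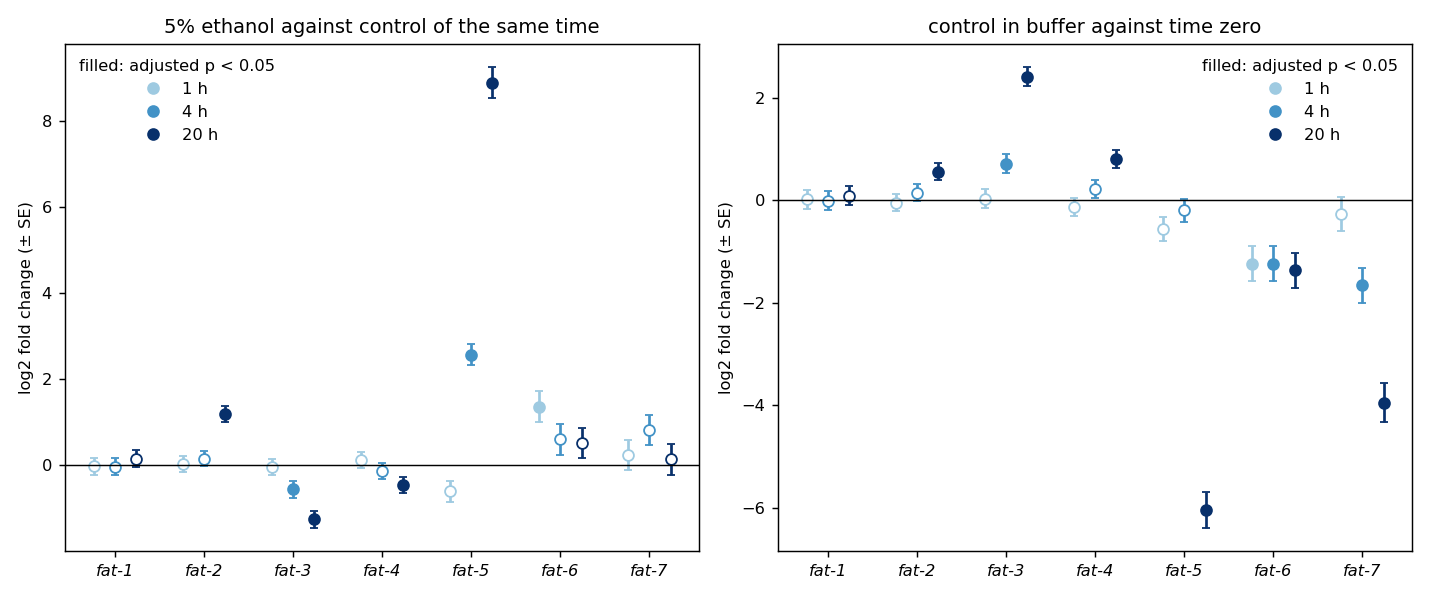
Log2 fold change with its SE (bars) for each desaturase gene at 1, 4 and 20 h (light to dark blue), for ethanol against control on the left and control against time zero on the right; filled points passed the test and open points did not. On the left fat-5 reaches 2.56 and 8.90 at 4 h and 20 h while fat-6 and fat-7 stay between 0.13 and 1.36; on the right fat-5 is at -6.04 and fat-7 at -3.95 at 20 h.

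A test of whether the ethanol effect differed between times called fat-5 (adjusted p = 3.96e-11), fat-2 (0.00162) and fat-3 (0.00422), 3 of 7 members against 40.7% of all genes. Between single times it called 1 of 7 from 1 h to 4 h (13.1% of all genes), 3 from 1 h to 20 h (35.7%) and 2 from 4 h to 20 h (32.3%). For fat-5 the effect at 20 h exceeded that at 4 h by 6.33 ± 0.43 on the log2 scale (adjusted p = 1.85e-09), and that at 4 h exceeded that at 1 h by 3.18 ± 0.34 (adjusted p = 1.94e-06). For fat-2 the 20 h effect exceeded the 4 h effect by 1.04 ± 0.26 (adjusted p = 0.00390). For fat-3 it was lower at 20 h than at 1 h by 1.22 on the log2 scale (-1.22 ± 0.28, adjusted p = 0.00149), while the step from 4 h to 20 h did not pass (-0.70 ± 0.28, adjusted p = 0.0568). For fat-6 (adjusted p = 0.313), fat-7 (0.472), fat-4 (0.206) and fat-1 (0.815) the test did not pass. It passed for fat-4 without the 6 libraries (0.00238) and with the length slope (0.000208), for fat-4 (0.0355) and fat-6 (0.0335) without control replicate 1 at 20 h, and for fat-7 without ethanol replicate 2 at 20 h (0.0226).

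Members of the family also differed between buffer without ethanol and time zero. Among the first-step genes fat-6 was lower than time zero at every time, fat-7 at 4 h and 20 h, and fat-5 at 20 h. Of the later enzymes fat-3 was higher at 4 h and 20 h, and fat-2 and fat-4 at 20 h. The control counts against time zero were 1 of 7 at 1 h against 10.8% of all genes, 3 of 7 at 4 h against 46.2%, and 6 of 7 at 20 h against 55.1%. The call at 1 h was lower (5.33% of all genes were higher and 5.49% lower). At 4 h 1 was higher and 2 lower (22.9% and 23.3%), and at 20 h 3 were higher and 3 lower (30.8% and 24.4%). In ethanol against time zero 1, 2 and 5 of 7 were called at 1, 4 and 20 h, against 10.6%, 39.2% and 53% of all genes. Ethanol against time zero and control against time zero share the time zero libraries, and their values are given side by side for that reason only. The calls nearest the threshold in that comparison were fat-7 at 4 h (-0.84 ± 0.33, adjusted p = 0.0494) and fat-6 at 20 h (-0.86 ± 0.34, adjusted p = 0.0384, groups overlapping). The call of fat-7 was lost when any 1 of the 7 libraries compared was left out (adjusted p 0.0562 to 0.145) and without the 6 libraries (0.0755). That of fat-6 was lost without time zero replicate 2, 3 or 4 or ethanol replicate 1 or 3 (0.0602 to 0.163). Without the 6 libraries the comparison of ethanol with time zero also called fat-2 at 4 h (0.29, adjusted p = 0.0333) and fat-1 (0.32, adjusted p = 0.0130) and fat-4 (0.32, adjusted p = 0.0225) at 20 h.

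The balance within the first-step enzymes was compared as log2 ratios of 2 genes in the same library, for 3 pairs of enzymes, with limma's moderated test adjusted over the ratios of that gene to all other genes. Exact two-sided permutation tests over libraries cannot go below p = 0.1 with 3 against 3, or 0.0286 with 3 against 4. Since fat-5 itself moved far, its ratio to 93.2% of all genes changed with ethanol at 4 h and to 99.9% at 20 h, and a changed ratio to fat-6 or fat-7 at those times is shared with nearly every gene.

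At 1 h the log2 ratio of fat-5 to fat-6 was lower with ethanol, at -6.79 against -4.79 (change -2.0 ± 0.52, adjusted p = 0.0106), when the ratio of fat-5 to 8.05% of all genes changed. This call was lost without control replicate 1 (adjusted p = 0.0582) or 2 (0.0918), and without ethanol replicate 1 (0.124) or 3 (0.0599). It turned over at 4 h, to -2.45 against -4.42 (1.97 ± 0.52, adjusted p = 0.000682), and at 20 h stood at -1.63 against -9.91 (8.28 ± 0.52, adjusted p = 1.56e-17). The 20 h controls were at -7.97, -10.73 and -11.03 and the ethanol libraries at -1.13, -2.77 and -0.99. The spread within both groups was wide (SD 1.69 in the controls and 0.988 in ethanol), and the gap between them was wider. The SE of 0.52 is pooled over all 7 groups, whose SD was as low as 0.109 in ethanol at 4 h. It therefore understates the spread of the 20 h libraries. Against time zero the control ratio did not pass at 1 h (0.68 ± 0.48, adjusted p = 0.282) or 4 h (1.05 ± 0.48, adjusted p = 0.115; 1.19 without the 6 libraries, which passed at 4.84e-05) and fell at 20 h (-4.44 ± 0.48, adjusted p = 9.48e-11), when the ratio of fat-5 to 12.1%, 23.5% and 98% of all genes changed.

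The ratio of fat-5 to fat-7 did not pass at 1 h (-0.87 ± 0.50, adjusted p = 0.245, exact permutation p = 0.3), and passed without the 6 libraries (-1.04, adjusted p = 0.00823). It rose with ethanol at 4 h (1.76 ± 0.50, adjusted p = 0.00162) and at 20 h (8.82 ± 0.50, adjusted p = 1.02e-18). At 20 h in ethanol it was 2.68, 0.57 and 2.48 on the log2 scale. These 3 libraries were the only ones of the 22 in which fat-5 was above fat-7. In the controls the ratio did not pass at 1 h (-0.29 ± 0.47, adjusted p = 0.636), rose above time zero at 4 h (1.47 ± 0.47, adjusted p = 0.0203), as fat-7 fell and fat-5 did not pass, and was below it at 20 h (-1.95 ± 0.47, adjusted p = 0.000221). The 4 h call was lost without time zero replicate 2 (adjusted p = 0.0509) or 4 (0.0521) or control replicate 1 (0.113).

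Between fat-6 and fat-7 the ratio was nearly fixed among time zero libraries, at 0.52, 0.51, 0.50 and 0.51. At 1 h it was -0.46, -0.49 and -0.44 in the controls and 0.67, 0.63 and 0.70 in ethanol, so the order of the pair was reversed in the controls and kept in ethanol. The difference of 1.13 ± 0.24 passed (adjusted p = 0.00272), at a time when the ratio of fat-6 to 72.1% of all genes changed. At 4 h (-0.21 ± 0.24, adjusted p = 0.536) and at 20 h (0.54 ± 0.24, adjusted p = 0.0831) it did not pass, against 17.9% and 38.1% of all genes whose ratio to fat-6 changed, and the 20 h change passed without ethanol replicate 2 (0.64, adjusted p = 0.0316). The control ratio was below time zero at 1 h (-0.97 ± 0.23, adjusted p = 0.00161), did not pass at 4 h (0.42 ± 0.23, adjusted p = 0.114) and exceeded it at 20 h (2.49 ± 0.23, adjusted p = 9.09e-09), when the ratio of fat-6 to 68.1%, 54.9% and 82.4% of all genes changed. The 20 h controls stood at 2.66, 3.14 and 3.19, so the low fat-6 of control replicate 1 went with a low fat-7.

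**Figure D3:**
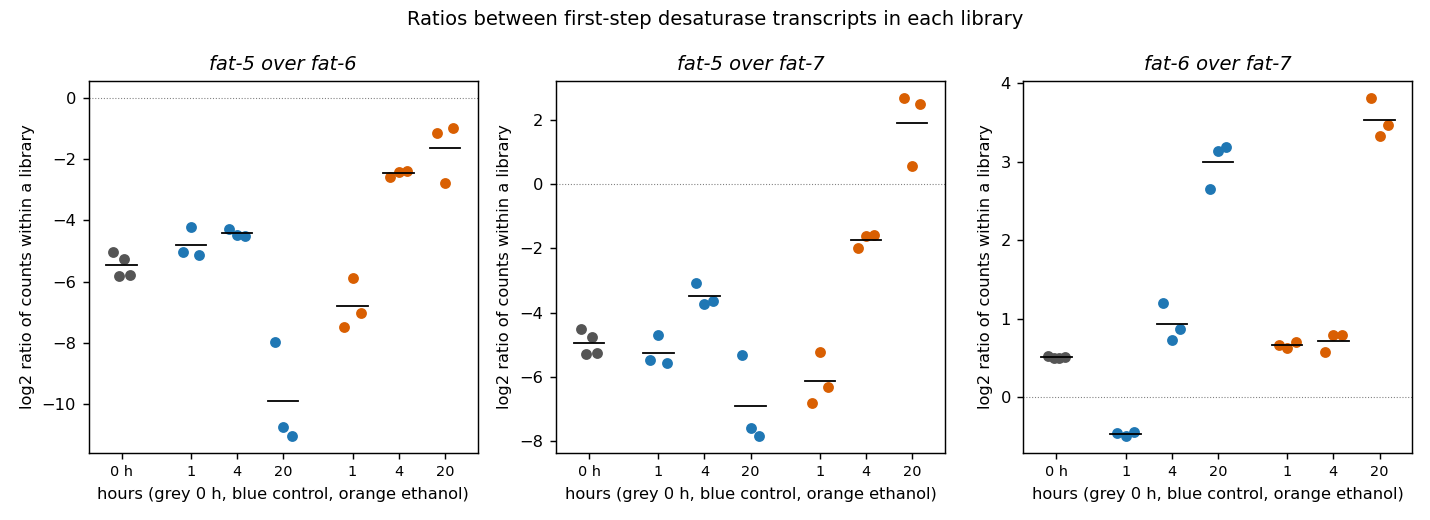
Log2 ratio of fat-5 to fat-6, fat-5 to fat-7 and fat-6 to fat-7 in each library, by hours in buffer, with time zero in grey, controls in blue, ethanol in orange and group means as bars. The ratio of fat-5 to fat-6 lies between -7.97 and -11.03 in the controls at 20 h and between -0.99 and -2.77 in ethanol, while the ratio of fat-6 to fat-7 separates controls from ethanol at 1 h.

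Levels of different genes were compared per kilobase of exon, with lengths from WBcel235 that ran from 1.104 kb for fat-5 to 1.54 kb for fat-4. At time zero the order was fat-2 (mean 730.3 CPM per kb), fat-6 (713.7), fat-7 (519.2), fat-1 (460.4), fat-4 (272.8), fat-3 (212.9) and fat-5 (17.1). The ranges of fat-2 and fat-6, of fat-7 and fat-1, and of fat-4 and fat-3 overlapped. Inside each time zero library, though, fat-7 was above fat-1 and fat-4 above fat-3. The order of fat-2 and fat-6 was not the same in all, since fat-6 was above fat-2 in replicate 3. No test was run on the order. In the 20 h control fat-3 (1132) and fat-2 (1075) led with overlapping ranges, fat-1 (490.1), fat-4 (477.4) and fat-6 (276.7) followed with overlapping ranges, and fat-7 (33.6) and fat-5 (0.251) were last and apart. In ethanol at 20 h fat-2 led alone (2458), then came fat-1 (544.3), fat-3 (471.6), fat-6 (393.2) and fat-4 (345.6), each overlapping the next, and fat-5 (124.1) stood above fat-7 (36.9) with no overlap. In the other 6 groups fat-5 was the lowest of the family.

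The 3 first-step genes together went from 1250 ± 141 CPM per kb at time zero (SD, n = 4) to 745.6 ± 159, 481.6 ± 9.44 and 310.5 ± 161 CPM per kb in the controls at 1, 4 and 20 h (n = 3 each). In ethanol the sums were 1290 ± 261, 835.3 ± 99.9 and 554.2 ± 217 CPM per kb. No test was run on these sums. The share of fat-5 in them was 1.40% at time zero and 0.139% in the 20 h control. The ethanol groups had a fat-5 share of 0.639% at 1 h, 10.6% ± 0.992 (SD, n = 3) after 4 h and 25.3% ± 11.3 after 20 h, where the 3 libraries stood at 31%, 12.3% and 32.7%. The low one, replicate 2, was the library with the high fat-6 and fat-7. The share of fat-7 went from 41.5% at time zero to 11.6% in the control and 6.21% in ethanol at 20 h, and fat-6 held the largest share in every group except the 1 h control, where fat-7 held 57.9% and fat-6 40.5%.

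**Figure D4:**
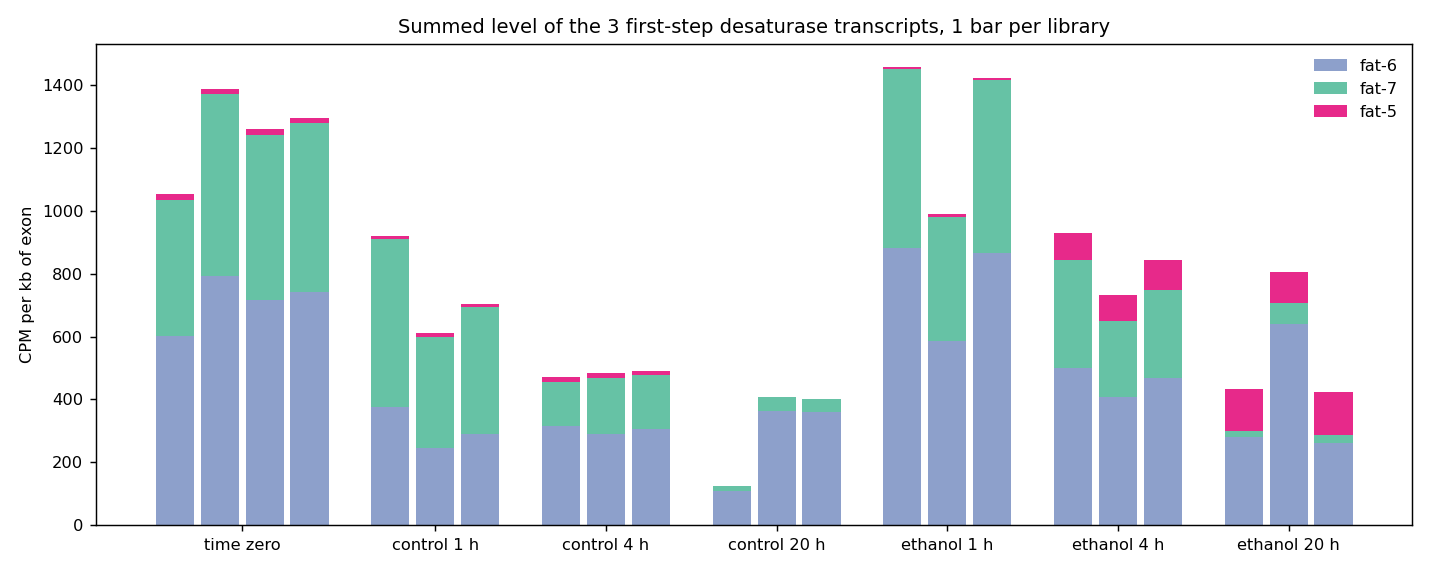
Stacked CPM per kb of exon of fat-6, fat-7 and fat-5, from bottom to top, with 1 bar for each library in the order of the replicate numbers within each group. The group mean of the whole bar is 1250 at time zero, 310.5 in the 20 h control and 554.2 in 20 h ethanol, where fat-5 makes up 31%, 12.3% and 32.7% of the 3 bars.

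Genes that supply, assist and regulate the desaturases were examined as lists. Elongases lengthen the chains that desaturases act on, and the list of chain synthesis and elongation held 13 genes. In the controls 6, 12 and 11 of the 13 were lower than time zero at 1, 4 and 20 h by edgeR, against 5.49%, 23.3% and 24.4% of all genes. The count of higher members was 0 at each time by edgeR, at an unadjusted p under 0.05 and by DESeq2. The median log2 change was -0.493, -1.65 and -1.31, against 0.0581, -0.0577 and 0.0692 for all genes. Ethanol against control gave 4 higher and 0 lower at 1 h (the same at an unadjusted p under 0.05 and by DESeq2), 4 and 2 at 4 h, and 6 and 2 at 20 h, beside 4.94% and 1.72%, 17.1% and 13.4%, and 25% and 28.1% of all genes. The medians were 0.191, 0.624 and 0.378 against -0.0119, 0.0011 and -0.0627.

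The elongases elo-5 and elo-6, which serve the monomethyl branched-chain fatty acids, were higher in ethanol than in their controls at all 3 times. The mean of elo-5 was 488.4 CPM at time zero, 101.1, 19.6 and 14.9 CPM in the controls and 228.6, 280.2 and 145 CPM in ethanol at 1, 4 and 20 h. Its ethanol effect was 1.18 ± 0.27, 3.84 ± 0.30 and 3.28 ± 0.29 on the log2 scale, and that of elo-6 was 1.17 ± 0.22, 1.82 ± 0.23 and 2.46 ± 0.23 (all passed, the highest adjusted p = 0.00795). The elongase of palmitate, elo-2, was higher in ethanol at 1 h (1.42 ± 0.15, adjusted p = 1.08e-06), lower at 4 h (-0.62 ± 0.15, adjusted p = 0.00267) and higher at 20 h (0.69 ± 0.15, adjusted p = 0.000512). Its control level went from 380.9 CPM at time zero to 85.2, 46.1 and 20.4 CPM.

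Of the 4 electron donor genes, 1 was higher in ethanol at each time, beside 4.94%, 17.1% and 25% of all genes. It was cytb-5.1, a cytochrome b5, with 162.8 ± 18.6, 347.7 ± 37.5 and 378.8 ± 131 CPM in ethanol against 60.2 ± 12.6, 59.7 ± 4.61 and 99.2 ± 24.5 CPM in the controls (SD, n = 3 each). The log2 changes were 1.44 ± 0.22, 2.54 ± 0.23 and 1.93 ± 0.22, and the groups were apart at all 3 times (highest adjusted p = 0.000184). Time zero stood at 116.1 CPM, so the controls at 1 h and 4 h were below it and all ethanol means above it.

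Among 11 regulators 0 were called at 1 h by edgeR and by DESeq2 (1 lower at an unadjusted p under 0.05), 1 higher and 2 lower at 4 h, and 3 higher and 2 lower at 20 h. With 30.5% and 53.2% of all genes called at 4 h and 20 h, these counts do not set the regulators apart. The lipid regulator sbp-1, the worm's sterol regulatory element binding protein, was lower in ethanol at 4 h (17.4 ± 1.96 against 39.8 ± 1.23 CPM, log2 -1.19 ± 0.32, adjusted p = 0.00734) and at 20 h (-0.84 ± 0.32, adjusted p = 0.0321, groups overlapping). The nuclear receptor nhr-80 was lower at 4 h (-0.73 ± 0.16, adjusted p = 0.00123), and nhr-49 was higher at 4 h (0.31 ± 0.11, adjusted p = 0.0366). The mediator subunit mdt-15 did not pass at any time, with effects of -0.53, -0.20 and -0.62 (adjusted p = 0.628, 0.780 and 0.207). At 4 h, when fat-5 was higher in ethanol, sbp-1 and nhr-80 were thus lower and nhr-49 higher. At 20 h, when fat-5 was also higher, sbp-1 was lower, but nhr-80 did not pass (-0.02 ± 0.16, adjusted p = 0.925). There nhr-49 did not pass either (-0.25 ± 0.11, adjusted p = 0.0599), with all its ethanol libraries below the controls. The 3 regulators higher at 20 h were acdh-11 (0.46 ± 0.13, adjusted p = 0.00665), nhr-13 (0.40 ± 0.14, 0.02) and paqr-2 (0.35 ± 0.14, 0.0437), all with groups apart. Besides sbp-1, scp-1 was lower (-0.37 ± 0.12, adjusted p = 0.0141), also with groups apart. A link of these regulators to fat-5 was not tested.

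**Figure D5:**
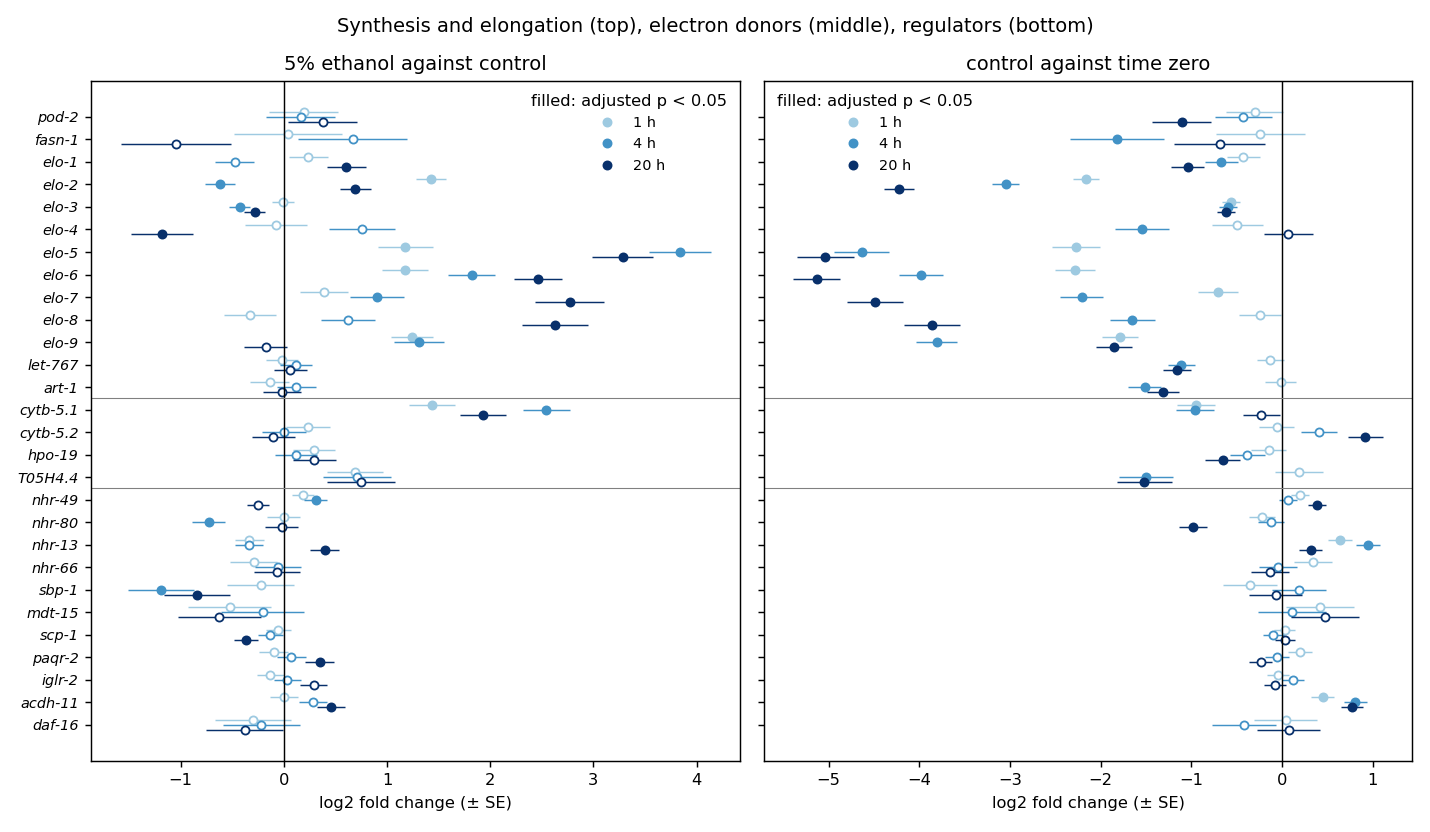
Log2 fold change with its SE for the genes of chain synthesis and elongation (top), electron donors (middle) and regulators (bottom) at 1, 4 and 20 h, for ethanol against control on the left and control against time zero on the right; filled points passed the test. With ethanol elo-5 reaches 3.84 at 4 h and cytb-5.1 reaches 2.54, while sbp-1 lies at -1.19.

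Markers of tissues moved between the same groups. Over all genes, ethanol calls were 17.1% higher and 13.4% lower at 4 h, and 25% higher and 28.1% lower at 20 h. The intestine list, with 9 of its 10 symbols found in the table, had 4 higher and 4 lower in ethanol at 20 h. Its summed level was 2077 to 3674 CPM against 2385 to 3084 in the control. At 4 h it had 2 higher and 5 lower, with 1762 to 2048 against 2667 to 2940 CPM. At that time hypodermis had 0 higher and 2 lower of 9 (1108 to 1330 against 1755 to 1942 CPM), and sperm 4 and 0 of 9 (129.2 to 144.9 against 87.1 to 93.9 CPM). Neurons had 1 and 2 of 8 (243 to 278.8 against 295.2 to 310.2 CPM) and yolk proteins 1 and 0 of 6 (34190 to 54090 against 61210 to 69450 CPM). No body wall muscle or oocyte and eggshell marker was called at 4 h. At 20 h the summed hypodermis markers were at 170.6 to 263.8 CPM in ethanol against 1158 to 1465 in the control, with 4 of 9 lower. All 8 body wall muscle markers were lower (2294 to 2482 against 7257 to 8921 CPM), as were 6 of 8 neuron markers (271 to 309.6 against 410 to 587.3 CPM). Yolk proteins had 1 higher and 4 lower of 6 (11200 to 25920 against 43800 to 83800 CPM), and the oocyte and eggshell list 1 higher and 2 lower of 13 (4514 to 6849 against 6382 to 9311 CPM). Sperm markers had 8 higher of 9 tested (63.8 to 79.5 against 10.3 to 15.4 CPM), with ssp-9 at 0 counts in every library. The part of these differences in the desaturase results was not tested.

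Markers also differed between the controls and time zero, where 22.9% of all genes were higher and 23.3% lower at 4 h, and 30.8% and 24.4% at 20 h. All 9 sperm markers tested were lower at 4 h and at 20 h, with sums of 185.5 to 295.7 CPM at time zero, 87.1 to 93.9 CPM at 4 h and 10.3 to 15.4 CPM at 20 h. At 20 h 7 of 8 neuron markers were higher (410 to 587.3 CPM against 217.4 to 284.6), and yolk proteins had 1 higher and 4 lower of 6 (43800 to 83800 against 47060 to 72250 CPM). The intestine list had 1 higher and 4 lower of 9 (2385 to 3084 against 4248 to 5608 CPM), hypodermis 2 and 4 of 9 (1158 to 1465 against 1849 to 2593 CPM), body wall muscle 4 and 2 of 8 (7257 to 8921 against 5455 to 7354 CPM). Of the oocyte and eggshell list 2 of 13 were higher (6382 to 9311 against 4226 to 11580 CPM). Their part in the fall of fat-5, fat-6 and fat-7 and the rise of fat-2, fat-3 and fat-4 was not tested.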

How the data were processed

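PolyA RNA of whole worms was sequenced in 22 libraries, and the authors deposited 1 table of raw read counts, whole numbers per gene and library. Per the submitters' processing notes they used STAR 2.7.9a, Trimmomatic 0.39, fastp 0.23.2, and featureCounts from Subread 2.0.3, with genome build ce10. Annotation, strand setting and treatment of multiply mapped reads are not stated. WBcel235, another build, served here only for exon lengths, neighbours and overlaps, so no coordinates or sequences are given.

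Groups and replicate numbers came from the labels. The titles call the samples biological replicates but do not say that they came from separate cultures. The p-values measure the spread between these samples, and how far it is biological is not known from the labels. No pair of group mates held identical counts (chi-square per degree of freedom 2.005 to 115.5).

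Of 42048 genes, 23391 had counts and 15310 passed filterByExpr (minimum count 10, minimum total 15; 99.9% of counts kept). A robust quasi-likelihood model (edgeR 4.0.16 in R 4.3.3) took all 22 libraries, a mean for each of the 7 groups and TMM scaling. Its two-sided F-tests were adjusted by Benjamini-Hochberg at 0.05, and every adjusted p is from them unless another test is named. Errors of log2 fold changes are SE, computed as the absolute change over the root of F. Ratios of 2 genes were tested with limma 3.58.1 on log2 CPM (prior count 0.5). The error of each ratio is pooled over the 7 groups, so it does not follow the spread of the groups compared. The tests were tried first on simulated data.

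The text names all 7 desaturases, examples from up to 4 members of each pathway list with the largest change past the threshold, and 4 set regulators. It also names every regulator called with ethanol at 20 h, and for each first-step gene the 4 genes most alike. Alternatives were limma-voom, DESeq2 1.42.0, different scaling, no count filter, a replicate block, the slope of each library on exon length, a fit of the compared groups alone, and libraries left out singly or as the 6 together. Same-numbered ethanol and control libraries did not deviate together in all pairs, so the numbers were not taken as pairing. The members and lists were chosen with earlier results of these data known.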

Additional observations from a re-analysis of the deposited data

Results flagged for a closer look

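For 3 genes the ethanol effect differed between the 3 times by a test of that difference with edgeR. For fat-5 (adjusted p = 3.96e-11) the log2 effect went from -0.61 at 1 h to 2.56 at 4 h and 8.90 at 20 h. For fat-2 (adjusted p = 0.00162) it was 0.02, 0.15 and 1.19. For fat-3 (adjusted p = 0.00422) it was -0.04, -0.56 and -1.26, downward with time where fat-2 went upward. The control means at 4 h and 20 h were 16.5 and 0.277 CPM for fat-5, 1017 and 1349 CPM for fat-2, with overlapping libraries, and 521.2 and 1689 CPM for fat-3. The step between these controls was not tested.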

How the results depend on the processing

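No called result changed direction under an alternative, and no result that changed direction was called. Effects that were not called did change sign in some, among them fat-6, fat-7 and fat-1 with ethanol at 20 h when 1 library was left out (-0.03 to 0.79, -0.58 to 0.47 and -0.13 to 0.32). Of 770 single-gene values 725 kept their side of the threshold, as did 95 of 108 ratio values, and 94 of 110 counts stayed within 1.5 times. The fits with a single library left out, in which several calls were lost, are not in these tallies and are given apart. The ratio values include the exact permutation test, whose p was not adjusted and which could not pass for ethanol against control whatever the data. For ethanol against control the number of members called at 1 h was 1, but 0 with no filter on low counts (1 gene, fat-6, at adjusted p = 0.0531), and 2 with the length slope or without the 6 libraries. At 4 h it was 2, but 1 with library sizes alone or the replicate block, 4 with the length slope or without the 6 libraries, and 5 with only the groups compared. Over all genes the calls at 1 h were 1021, but 933 with no filter, 3578 with the length slope and 1550 without the 6 libraries. At 4 h they were 4664, but 4294 with library sizes alone and 4322 with the block. They were 7297 with the length slope, 5868 without the 6 libraries and 6515 of 13695 tested with only the groups compared. For control against time zero at 1 h the number of members called was 1, but 0 with the block, and 2 with the length slope or without the 6 libraries. Over all genes 1657 were called, but 1252 with the block, 4456 with the length slope and 2061 without the 6 libraries. For ethanol against time zero at 4 h the number of members called was 2, but 1 with library sizes alone, upper-quartile factors, no filter or the block, and 4 with the length slope. Over all genes 6002 were called, but 5504, 5727, 5700 and 5021 in the first-named settings and 9478 with the length slope. The length slope and the scores of the 6 libraries were both taken from deviations from the group means. The 6 were also the libraries with the highest slopes, so these settings are not separate checks. Those settings therefore take out spread inside groups by design, and calls gained there are not particular to the members. The cause of the shifts in these counts was not tested.

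Leaving out 1 library gave 0 to 2 calls for ethanol against control at 1 h, 1 to 1 at 4 h and 3 to 4 at 20 h, and 0 to 1, 3 to 3 and 5 to 7 for control against time zero. It gave 1 to 1, 1 to 1 and 4 to 5 for ethanol against time zero, and 3 to 5 for the difference between times (5 without control replicate 1 at 20 h). Ratio changes ran from -2.46 to -1.65 for fat-5 to fat-6 with ethanol at 1 h, 1.26 to 1.62 for fat-5 to fat-7 in the 4 h control and 0.37 to 0.64 for fat-6 to fat-7 with ethanol at 20 h.

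The exact permutation test cannot pass with 3 against 3 libraries, which ended the calls of the ethanol ratio changes of -2.0, 1.97 and 8.28 (fat-5 to fat-6), 1.76 and 8.82 (fat-5 to fat-7) and 1.13 (fat-6 to fat-7). Against time zero the 4 h control changes of 1.05 (fat-5 to fat-6) and 0.42 (fat-6 to fat-7) reached the lowest p it can give, 0.0286. That p is not adjusted for the number of ratios, and any 2 groups that lie apart reach it. The fit of only the groups compared called both changes (adjusted p = 2.4e-06 and 0.0133). The replicate block ended the call of 1.37 for fat-5 to fat-7 in the 4 h control (adjusted p = 0.0592). It also ended those of fat-3 with ethanol at 4 h (0.0585), fat-4 at 20 h (0.0729), fat-6 in the 1 h control (0.0700), and of ethanol against time zero fat-7 at 4 h (0.106) and fat-6 at 20 h (0.0722). Without the 6 libraries the changes of 1.19 for fat-5 to fat-6 in the 4 h control and -1.04 for fat-5 to fat-7 with ethanol at 1 h passed. Depth limits the 20 h fold of fat-5, since its controls held 11 reads in all.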

Other observations

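Among 6 genes of beta-oxidation and the glyoxylate cycle linked to NHR-49, a nuclear receptor known to act on fat-7, members went both ways. The acyl-CoA synthetase acs-2 was below the control in ethanol at 1 h (log2 -1.63 ± 0.38, adjusted p = 0.0101) and at 20 h (-4.76 ± 0.44, adjusted p = 2.24e-08) and above it at 4 h (2.72 ± 0.41, adjusted p = 3.66e-05), and the glyoxylate enzyme gene icl-1 was lower at all 3 times (-1.37, -2.97 and -1.58). The acyl-CoA dehydrogenase acdh-2 was higher at 1 h (1.03 ± 0.24, adjusted p = 0.0103) and 4 h (3.41 ± 0.27, adjusted p = 5.12e-09) and lower at 20 h (-0.74 ± 0.26, adjusted p = 0.0207). The largest change at 4 h was that of cpt-5, which was lower (-4.29 ± 0.545, adjusted p = 4.49e-06). The gene hacd-1 was higher at 4 h (3.14 ± 0.22, adjusted p = 6.95e-10) and was the 1 gene higher at 20 h (3.74 ± 0.23, adjusted p = 3.6e-11). In all, 1, 3 and 1 of the 6 were higher and 2, 2 and 4 lower at 1, 4 and 20 h, when 6.67%, 30.5% and 53.2% of all genes were called. The controls had themselves moved from time zero. Of the 6, 2 were higher there at each time and 1, 4 and 3 lower (10.8%, 46.2% and 55.1% of all genes called). In ethanol 2, 1 and 0 were higher than time zero and 0, 1 and 4 lower (10.6%, 39.2% and 53%). The mean of icl-1 was 229.4 CPM at time zero. It was 1519, 1583 and 680.8 CPM in the controls and 586.6, 202.3 and 227.7 CPM in ethanol. Of 6 genes that use polyunsaturated fatty acids, 1, 1 and 2 were higher and 0 lower in ethanol at 1, 4 and 20 h by edgeR. Over all genes 4.94%, 17.1% and 25% were higher, and DESeq2 also called 2 of the 6 lower at 4 h. The gene cyp-29A3, a cytochrome P450, was higher at each time (1.55 ± 0.27, 1.09 ± 0.26 and 2.88 ± 0.30, highest adjusted p = 0.00262). The other gene higher at 20 h was ceeh-1 (0.73 ± 0.215, adjusted p = 0.00724).

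The genes most like each first-step gene over the 7 group means of log2 CPM, among 9939 genes, differed for the 3. For fat-7 they were the collagen genes col-129 (Pearson r = 0.999) and col-92 (0.997), with F08G5.6 (0.997) and F55G11.4 (0.995). The mean of col-129 went from 2438 CPM at time zero to 186.3 CPM in the 20 h control and 183.9 CPM in 20 h ethanol. For fat-5 they were ZC412.10 (0.992), mrpl-20 (0.977), R08D7.4 (0.977) and C44H9.6 (0.972), which moved over a much narrower range than fat-5: ZC412.10 was at 3.41 CPM in the 20 h control and 20.8 CPM in 20 h ethanol. For fat-6 they were T07E3.4 (0.959), R07E4.3 (0.950), C44B7.7 (0.945) and F25H5.8 (0.938). With 7 points chosen as the highest of many genes these values are a description only.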
